A study of Mus musculus with 2 samples.

Results

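The genes described here are Klrk1, Klrd1, Klrb1c and Klrg1, 4 receptors best known from natural killer (NK) cells that some T cells also use. They were taken by name from a table of 11971 genes, with unique molecular identifiers (UMIs, each counting 1 captured RNA molecule) summed per mouse and per cluster of cells. The T cells came from colons of Rag-/- recipients, which make no T or B cells of their own, after transfer of donor CD4 T cells, a procedure that leads to colitis. KO-labelled mice had received BCL-6 deficient CD4+ T cells and WT-labelled mice CD4+ CD45RBhigh CD25- wild-type T cells, 6 mice each. Recipients of both kinds thus lacked Rag, and each colon was sorted for TCRb+CD4+ cells. The allele behind the loss of BCL-6, the age of the mice and the time after transfer are not given in the sources used here. All 12 mice carried a hashtag of their own and were pooled in 1 library of 5′ chemistry, so the mouse was the replicate; mice are numbered by hashtag within a genotype. Whether the donor cells came from separate donors is not stated, and p-values therefore measure the spread between recipient mice. The edgeR p-values of the split by Klrk1, described there, are an exception.

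All 4 genes encode C-type lectin-like receptors. Klrk1 encodes NKG2D, an activating receptor that binds stress-induced relatives of major histocompatibility proteins and signals through the adaptor encoded by Hcst. Klrd1 encodes CD94, which pairs with NKG2 proteins such as NKG2A, the product of Klrc1, and reads a non-classical histocompatibility molecule encoded in the mouse by H2-T23. Klrb1c encodes NK1.1, the antigen by which NK cells of some mouse strains are recognised. Klrg1 encodes an inhibitory receptor for cadherins that marks terminally differentiated effector T cells and NK cells, and also a subset of regulatory T cells in tissues. On CD4 T cells these receptors are usually scarce.

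The 4 genes lie on chromosome 6 (GENCODE annotation of GRCm38). Klrk1 spans 129610323 to 129623864 on the minus strand, and Klrd1 lies next to it at 129591782 to 129598775 on the plus strand. Klrb1c lies at 128778485 to 128789215 and Klrg1 at 122270596 to 122282882, both on the minus strand. Klrb1c overlaps the gene model Gm44511 on the same strand and resembles its neighbour Klrb1b, so its counts are uncertain. Promoter sequence was available for 2 of the 4 genes, and it is shown because these 2 moved in opposite directions over all cells. The windows are the 250 bases before the RefSeq start (build GRCm38.p6, minus strand, 5′ to 3′) at chr6:129623865-129624114 for Klrk1 and chr6:128788642-128788891 for Klrb1c, and capitals mark the letters TGTGGT of a RUNX motif. The GENCODE start of Klrb1c lies farther upstream than the RefSeq start, so its window falls within the GENCODE span given above.
Klrk1: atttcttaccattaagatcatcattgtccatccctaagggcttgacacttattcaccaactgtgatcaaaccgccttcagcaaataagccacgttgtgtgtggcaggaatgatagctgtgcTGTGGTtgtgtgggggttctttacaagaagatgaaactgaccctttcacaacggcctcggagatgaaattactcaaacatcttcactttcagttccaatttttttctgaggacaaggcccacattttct
Klrb1c: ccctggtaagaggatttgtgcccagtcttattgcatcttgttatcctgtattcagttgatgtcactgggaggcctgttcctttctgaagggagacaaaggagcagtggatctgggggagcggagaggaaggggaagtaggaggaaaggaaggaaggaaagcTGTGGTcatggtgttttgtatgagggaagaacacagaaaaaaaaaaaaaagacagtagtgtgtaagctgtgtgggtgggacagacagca
Both windows held 1 match to TGTGGT, at position -129 from the start of Klrk1 and -89 from that of Klrb1c, and 14.0% of 32851 promoters held 1 or more on either strand. Each also held 1 E-box match (CANNTG), which 66.2% of promoters had. Neither had a match to the T-box motif GGTGTGA (3.33% of promoters) or the STAT motif TTCNNNGAA (7.02%) on either strand, and a match or its lack says nothing here about binding.

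The table held 18860 cells, 9708 with the KO label and 9152 with the WT label. Each mouse gave 1409 to 1736 cells and 4252124 to 5523025 UMIs, with a median over all cells of 2772 UMIs per cell. Levels are given as CPM, the UMIs of a gene per 1000000 UMIs of that mouse, or of that mouse and cluster. The authors' clusters were kept, namely regulatory, Th17, cytotoxic, recirculating and cycling cells and a pair without a specific name, called unnamed 1 and unnamed 3. Bcl6, the gene targeted in the donor cells, measured 65.8 to 91.3 CPM for KO-labelled mice and 48.4 to 69.6 CPM in WT-labelled mice, and was called higher in KO (log2 fold change 0.48 ± 0.10, SE). Bcl6 RNA was thus not lower under the KO label. Since the deleted stretch is not given, UMIs counted at the 5′ end do not check the labels in either direction. Of 11 markers of NK and innate lymphoid cells, 5 were in the table, and their summed level was 16.0 to 30.4 CPM in KO-labelled mice and 35.7 to 86.9 CPM in WT-labelled mice, and Eomes alone was lower in KO (5.26 CPM on average in KO and 47.6 CPM in WT). The other markers averaged 10.9 and 9.37 CPM (Itga2), 1.92 and 1.55 CPM (Tyrobp), 1.74 and 1.73 CPM (Fcer1g) and 1.16 and 0.581 CPM (Klre1) in KO and WT. CD8 markers summed to 4.06 to 10.0 CPM in KO-labelled mice and 11.3 to 56.2 CPM in WT-labelled mice, with Cd8a at 3.69 CPM in KO and 39.1 CPM in WT on average and Cd8b1 at 2.74 and 2.82 CPM. The part of these levels in the results was not tested.

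Klrk1 was higher in KO-labelled mice. Summed over all cells it measured 47.5, 62.6, 44.6, 42.7, 65.1 and 22.99 CPM for KO-labelled mice 1 to 6, against 11.9, 29.1, 14.6, 14.2, 17.5 and 20.6 CPM for WT-labelled mice 1 to 6. Only KO-labelled mouse 6 lay within the WT range, below WT-labelled mouse 2 and above the other WT-labelled mice. The means were 47.6 ± 15.3 CPM in KO and 18.0 ± 6.24 CPM in WT (SD, n = 6 each), and edgeR gave a log2 fold change of 1.36 ± 0.23 (SE, adjusted p = 0.00107, quasi-likelihood test with Benjamini-Hochberg adjustment over 9861 genes). This test called 3 of the 4 receptor genes, and 14.2% of all genes tested, 7.04% as higher and 7.21% as lower in KO. In such sums a higher level per cell, more cells with the RNA and a change in the mix of cells cannot be told apart. With each mouse weighted to the mix of clusters over all mice, the Klrk1 difference was 1.13, still called by edgeR on the rounded sums.

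Detection of Klrk1 pointed the same way, without passing the test. Thinned to 1500 UMIs per cell, 5.92% ± 1.78 of cells in KO-labelled mice and 2.23% ± 0.90 in WT-labelled mice held a Klrk1 UMI (exact permutation p = 0.00649, two-sided, n = 6 each, adjusted p = 0.0800), and without KO-labelled mouse 6 the difference passed (adjusted p = 0.0406). The same test called 4.68% of 10047 genes. Without thinning the pooled shares were 8.49% of KO and 3.81% of WT cells. Regulatory T cells, in which Klrk1 was close to absent, held a UMI in 1 of 254 cells (0.394%) in KO and 2 of 126 (1.59%) in WT, at medians of 2453 and 2700 UMIs per cell. By the same test Klrd1 was found in 3.56% ± 1.48 of cells in KO and 4.08% ± 1.18 in WT (adjusted p = 0.739), Klrb1c in 0.221% ± 0.141 and 0.588% ± 0.222 (0.0917) and Klrg1 in 2.75% ± 0.928 and 2.15% ± 0.550 (0.484), by exact permutation.

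**Figure D1:**
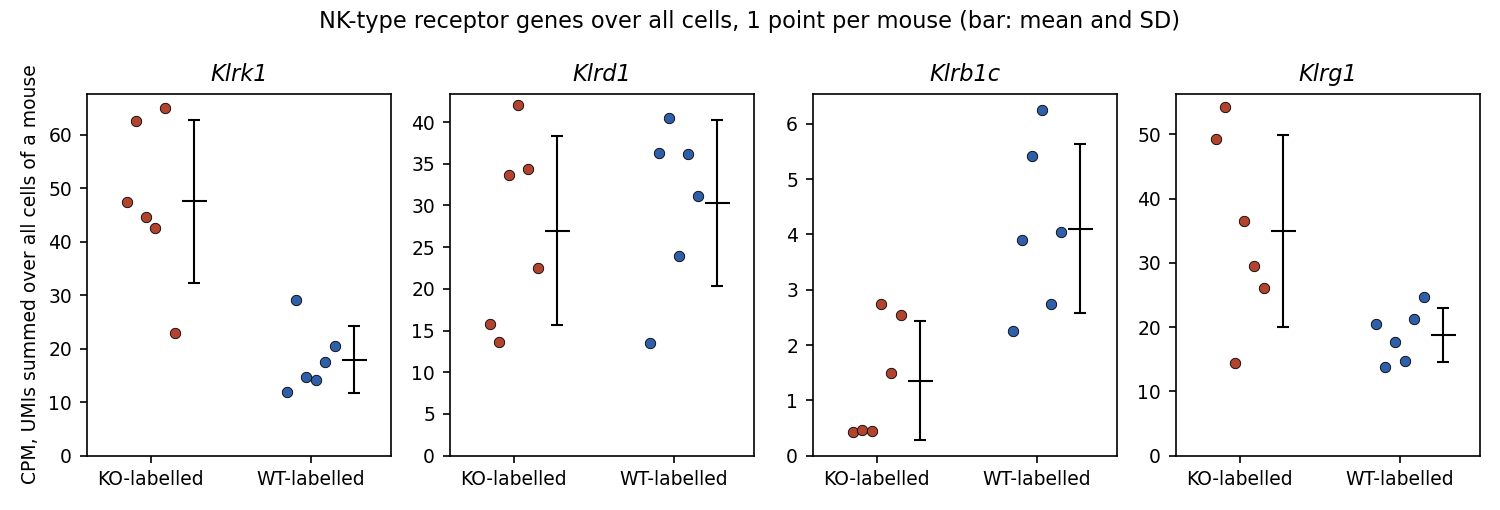
Each point is 1 mouse: CPM of the 4 receptor genes from UMIs summed over all its cells, KO-labelled mice left and WT-labelled mice right, on a linear axis from 0, with the mean and SD as a bar. Klrk1 averaged 47.6 CPM in KO and 18.0 CPM in WT, Klrb1c 1.35 and 4.10 CPM, and Klrd1 overlapped throughout.

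Recirculating cells, which carry homing genes such as Klf2, showed the Klrk1 difference in CPM with no overlap between genotypes. Klrk1 stood at 25.4, 55.8, 51.9, 68.1, 70.9 and 27.8 CPM in recirculating cells of KO-labelled mice 1 to 6, against 21.9, 15.1, 12.5, 14.2, 10.2 and 25.0 CPM for WT-labelled mice 1 to 6. The lowest KO-labelled mouse lay just above the highest WT-labelled mouse. Its log2 fold change by edgeR was 1.52 ± 0.24 (SE, adjusted p = 1.4e-04). This comparison called 5.48% of 7596 genes, and 3.88% had no overlap. After thinning, 6.31% ± 1.95 of recirculating cells in KO and 2.28% ± 1.14 in WT held a Klrk1 UMI (SD). These shares overlapped, with KO-labelled mouse 6 at 3.23% and WT-labelled mouse 6 at 4.40%. The difference in shares did not pass (exact permutation, adjusted p = 0.187).

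In unnamed 1 cells, the largest cluster of KO-labelled mice, Klrk1 averaged 67.3 ± 32.0 CPM in KO and 39.4 ± 26.3 CPM in WT (SD, n = 6 each), and the difference did not pass (0.89 ± 0.33, SE, adjusted p = 0.146; 4.65% of 5933 genes were called there). The ranges overlapped, at 35.5 to 113 CPM in KO and 21.9 to 88.4 CPM in WT. With no filter on low counts it passed (0.94, adjusted p = 0.0480; edgeR then called 2.45% of 11914 genes).

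In cytotoxic cells Klrk1 measured 53.5, 18.9, 64.2, 65.2, 89.2 and 40.9 CPM for KO-labelled mice, against 10.2, 69.6, 26.1, 22.1, 24.3 and 25.8 CPM in WT-labelled mice. WT-labelled mouse 2 was higher than 5 of the 6 KO-labelled mice. The difference of 0.95 ± 0.33 (SE) did not pass (adjusted p = 0.135; 2.89% of 6601 genes were called), but without WT-labelled mouse 2 it was 1.42 with an adjusted p of 9.4e-04.

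Th17 cells held few Klrk1 UMIs, 47 in 563 cells of KO-labelled mice and 16 in 1658 cells of WT-labelled mice. The levels were 63.1, 86.2, 25.3, 10.1, 16.2 and 6.24 CPM in KO-labelled mice, against 2.55, 2.23, 5.03, 3.09, 3.95 and 0.695 CPM in WT-labelled mice. Every KO-labelled mouse lay above every WT-labelled mouse, and KO-labelled mice 1 and 2, with 90 and 44 Th17 cells, were highest. Of the genes that passed the filter in Th17 cells, 3.26% had no overlap. The gene was too low for the filter on low counts; with no filter its log2 fold change was 3.18 ± 0.51 (SE, adjusted p = 3.4e-05), where 3.03% of 11886 genes were called. After thinning, 5.23% ± 4.78 of Th17 cells in KO and 0.137% ± 0.234 in WT held a Klrk1 UMI (exact permutation p = 0.00216, the smallest that 6 against 6 mice can give, adjusted p = 0.184; 0.0% of 10047 genes were called in Th17 cells, and 920 had an unadjusted p under 0.05).

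Whether the KO difference of Klrk1 itself varied between clusters was tested within mice with limma. The difference in cytotoxic cells minus that in Th17 cells was -1.65 ± 0.80 on the log2 scale (SE, adjusted p = 0.524), and minus that in recirculating cells -0.57 ± 0.52 (adjusted p = 0.789). Minus that in unnamed 1 cells it was 0.12 ± 0.58 (adjusted p = 0.971). None passed. limma called 0.0% of the 5794, 7453 and 6034 genes compared, of which 572, 585 and 432 had an unadjusted p under 0.05.

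**Figure D2:**
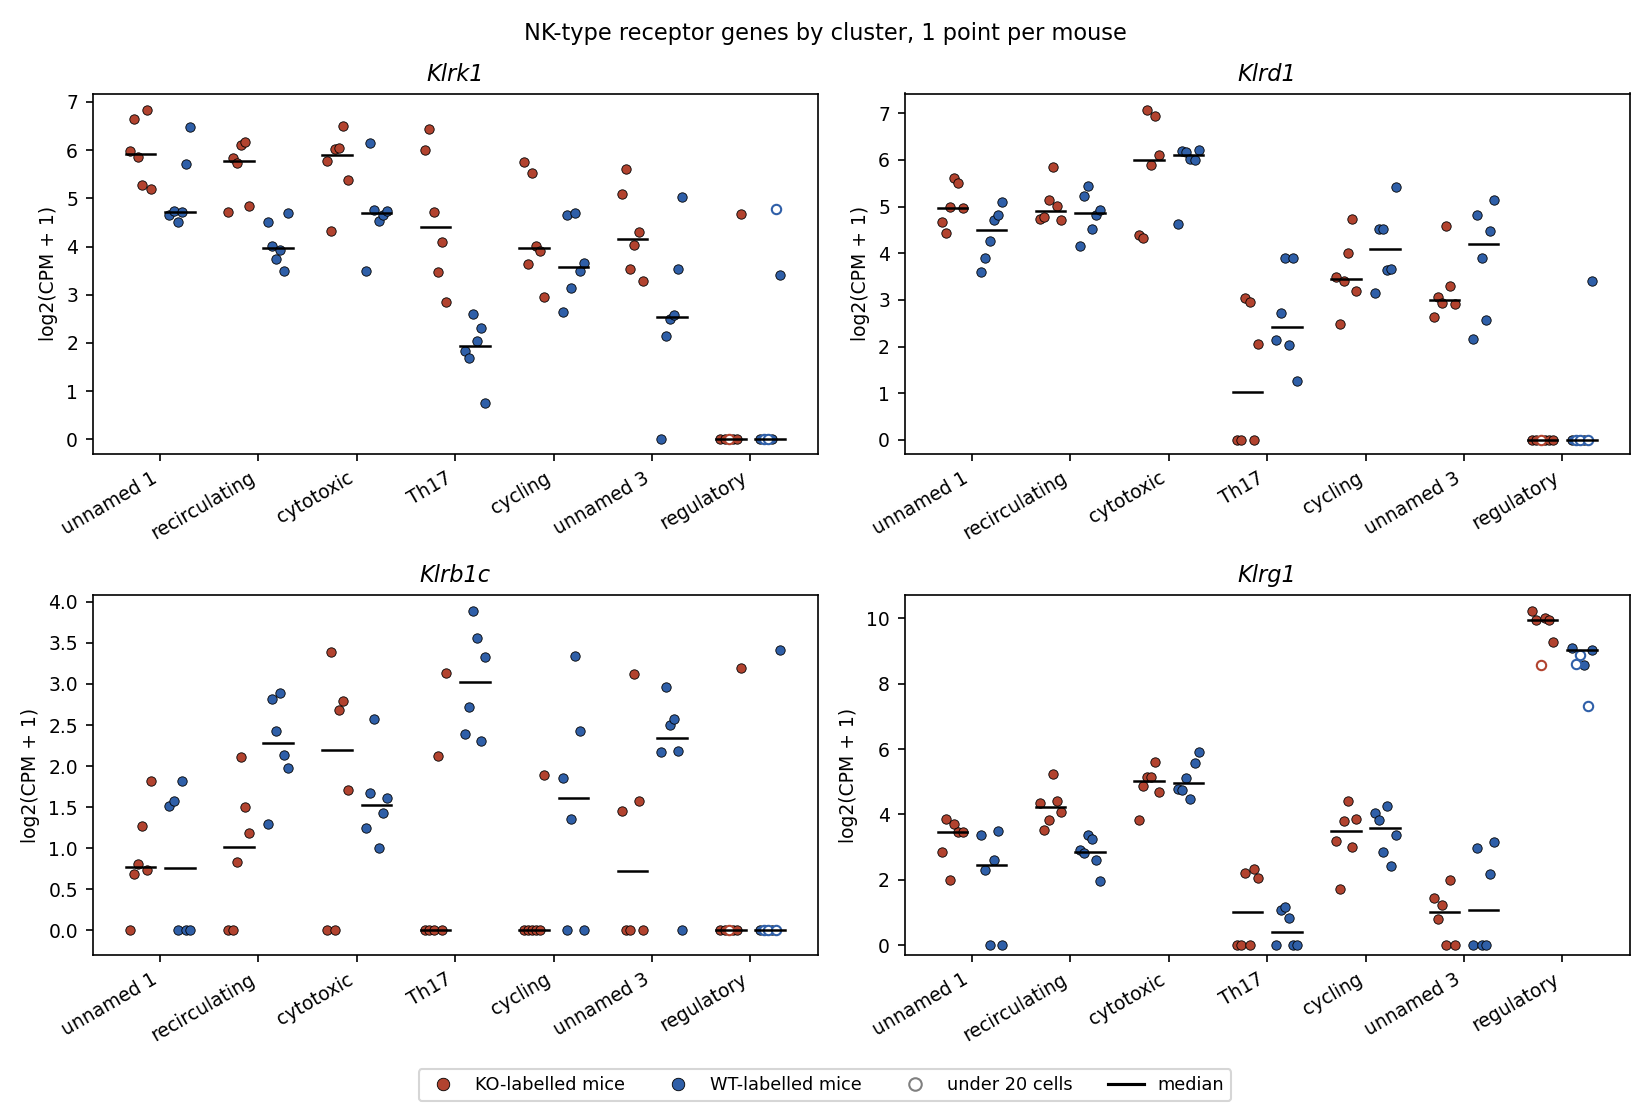
Each point is 1 mouse and cluster: log2(CPM + 1) of the 4 receptor genes in the 7 clusters, KO-labelled mice in red to the left of WT-labelled mice in blue, with the median of mice with 20 or more cells as a line and open points for mice with fewer. Klrk1 in recirculating and Th17 cells does not overlap between genotypes, and Klrg1 is far higher in regulatory cells than in any other cluster.

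The order of Klrk1 levels over clusters was shared in part. In KO-labelled mice it ran from unnamed 1 (67.3 ± 32.0 CPM) over cytotoxic (55.3 ± 23.9), recirculating (50.001 ± 19.5), Th17 (34.5 ± 32.6), cycling (24.2 ± 19.5) and unnamed 3 (22.4 ± 15.1) to regulatory cells (4.88 ± 10.9 CPM, SD, 5 mice there and 6 elsewhere). In WT-labelled mice unnamed 1 (39.4 ± 26.3 CPM), cytotoxic (29.7 ± 20.4) and recirculating cells (16.5 ± 5.72) also led, followed by cycling (14.0 ± 8.51), unnamed 3 (9.19 ± 11.4), regulatory (3.21 ± 5.56, 3 mice) and Th17 cells (2.92 ± 1.49 CPM). Neighbours in either order differed by less than the larger of their SDs, except unnamed 3 and regulatory cells in KO. Th17 cells thus stood in the middle of the KO order and last in the WT order.

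Klrd1, the CD94 gene, was not called over all cells. It measured 15.8, 13.6, 33.6, 42.0, 34.4 and 22.5 CPM for KO-labelled mice 1 to 6, against 13.5, 36.3, 40.5, 24.0, 36.2 and 31.1 CPM for WT-labelled mice 1 to 6. The groups overlapped almost fully, and the log2 fold change of -0.20 ± 0.27 (SE) did not pass by edgeR (adjusted p = 0.675). It changed sign with every mouse weighted to the same mix of clusters. KO-labelled mice 1 and 2, lowest among the KO-labelled, also had the fewest cytotoxic cells, 69 and 51.

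Cytotoxic cells had the highest Klrd1 level in both genotypes, 70.1 ± 48.9 CPM in KO and 61.4 ± 18.9 CPM in WT, and the KO-labelled mice ranged from 18.9 to 133 CPM. In the clusters where Klrd1 was high enough for the filter on low counts, it was not called by edgeR. The log2 fold changes were 0.36 ± 0.27 in cytotoxic (adjusted p = 0.618), 0.15 ± 0.21 in recirculating (0.806) and 0.66 ± 0.29 in unnamed 1 cells (0.237), with SE. In the other clusters it was not tested with that filter. After cytotoxic cells, Klrd1 was next highest in recirculating (33.2 ± 11.95 CPM in KO and 29.0 ± 9.30 CPM in WT) and unnamed 1 cells (33.0 ± 10.7 and 21.5 ± 8.48 CPM). It was lower in cycling (12.2 ± 7.46 and 19.5 ± 12.5 CPM), unnamed 3 (9.60 ± 6.67 and 17.5 ± 12.2 CPM) and Th17 cells (2.85 ± 3.43 and 6.85 ± 5.56 CPM). Cycling and unnamed 3 cells differed by less than their SD in both genotypes. In unnamed 3 cells it was lower in KO only with no filter on low counts (-1.28 ± 0.40, SE, adjusted p = 0.0487, with 39 and 32 UMIs in KO and WT; 3.55% of 11879 genes were called). No Klrd1 UMI was seen in the 254 regulatory cells of KO-labelled mice, which allows a share of cells with a UMI of up to 1.18% (3 counts, counting error only).

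Klrb1c, the NK1.1 gene, was the rarest of the 4 and was lower in KO, with 39 UMIs under the KO label and 121 under the WT label. Its levels were 0.428, 0.470, 0.451, 2.74, 1.49 and 2.53 CPM in KO-labelled mice, against 2.26, 3.90, 5.42, 6.25, 2.74 and 4.04 CPM in WT-labelled mice. KO-labelled mice 4 and 6 lay within the WT range, and the other KO-labelled mice lay below it. By edgeR, the log2 difference came to -1.58 ± 0.40 (SE, adjusted p = 0.0134). Weighting every mouse to the same mix of clusters ended the call (-1.12, adjusted p = 0.0941 by edgeR). So did its fit without KO-labelled mice 1 and 2 (-1.19, adjusted p = 0.0713).

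Th17 cells held 50 of the 121 Klrb1c UMIs of WT-labelled mice (41.3%), while making up 18.1% of their cells. Klrb1c averaged 1.86 ± 3.21 CPM in Th17 cells of KO-labelled mice and 7.91 ± 3.98 CPM in those of WT-labelled mice. In KO, 6 UMIs were found in 563 Th17 cells, 5 of them in mouse 6. Th17 cells were also fewer in KO, 5.80% against 18.1% of cells; the part of this in the Klrb1c difference over all cells was not tested beyond the weighting of clusters above. With no filter the difference within Th17 cells did not pass (-1.41 ± 0.60, SE, adjusted p = 0.283).

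Klrg1 was higher in KO over all cells. It measured 49.2, 54.3, 14.4, 36.5, 29.4 and 26.1 CPM for KO-labelled mice 1 to 6, against 20.5, 13.7, 17.6, 14.8, 21.3 and 24.6 CPM for WT-labelled mice 1 to 6. KO-labelled mouse 3 lay within the WT range and the other KO-labelled mice above it. edgeR gave a log2 fold change of 0.85 ± 0.25 (SE, adjusted p = 0.0293). Without regulatory cells it was -0.21 (adjusted p = 0.637), and without KO-labelled mice 1 and 2 it was 0.46 (adjusted p = 0.211). The call was also lost on leaving out KO-labelled mouse 1 or 2, or WT-labelled mouse 2, 3 or 4, with adjusted p up to 0.0783.

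Regulatory cells, which restrain other T cells, held 645 of 967 Klrg1 UMIs in KO (66.7%) and 170 of 558 in WT (30.5%), although they were 2.62% and 1.38% of cells. In mice with 20 or more regulatory cells, its level was 1182, 978, 1032, 986 and 618 CPM for KO-labelled mice 1, 2, 4, 5 and 6, against 548, 378 and 520 CPM in WT-labelled mice 1, 4 and 6. These groups did not overlap, as for 6.84% of the 1754 genes tested in regulatory cells. Its log2 fold change by edgeR was 0.95 ± 0.21 (SE, adjusted p = 0.0404), among 0.513% of genes called. KO-labelled mouse 3, with 19 regulatory cells, had 381 CPM, within the WT range, and WT-labelled mice 2, 3 and 5, with 13, 10 and 11, had 390, 471 and 158 CPM. With all 12 mice the difference was 0.99 (adjusted p = 0.0616), and leaving out 1 mouse of the 8 gave adjusted p from 0.0115 to 0.206, with the call lost without KO-labelled mouse 1, 2, 4 or 5 or WT-labelled mouse 4 or 6.

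After thinning, a Klrg1 UMI was found in 60.2% ± 8.77 of regulatory cells of KO-labelled mice (SD, 4 mice). In WT-labelled mice the share was 37.7% ± 8.81 (SD, 3 mice). Single mice ranged from 48.6% to 69.6% in KO and from 28.6% to 46.2% in WT. These ranges did not overlap, but how many other genes separated in such shares was not counted. The other mice had too few thinned regulatory cells and were left out. The exact permutation p was 0.0571, and 4 against 3 mice allow none under 0.0286. A gene could pass after adjustment only if a large share of genes lay near that floor. None passed (0.0% called, 278 at an unadjusted p under 0.05). Among thinned regulatory cells, a UMI of Foxp3, the defining factor of regulatory T cells, was held by 40.9% of cells with Klrg1 and 44.9% of cells without it in KO, and by 54.8% and 54.3% in WT. Tigit, an inhibitory receptor, was found in 56.2% of cells with and 37.1% of those without Klrg1 in KO and in 57.1% and 38.6% in WT, higher with Klrg1 in 6 of 9 mice. For Il1rl1, the interleukin-33 receptor of tissue regulatory cells, the shares were 39.4% and 34.8% in KO and 45.2% and 21.4% in WT, higher in 8 of 9 mice. Itgae, the CD103 integrin chain, was found in 38.7% and 39.3% in KO and 40.5% and 45.7% in WT, and Il2ra, the interleukin-2 receptor alpha chain, in 55.5% and 57.3% in KO and 61.9% and 58.6% in WT. These 5 genes were picked from a longer set once their values were known and carry no test. Others of that set, likewise untested, also differed. Il10 and Gata3 were each higher with Klrg1 in 7 of 9 mice, and Ccr7 was lower in 7 of 9. None of the 179 regulatory cells with Klrg1 held Klrk1, which allows a share of up to 1.68%.

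Outside regulatory cells, Klrg1 was higher in KO in recirculating cells, at 19.6, 10.6, 13.2, 36.6, 20.3 and 15.8 CPM for KO-labelled mice 1 to 6, against 6.56, 6.05, 9.34, 8.54, 5.09 and 2.94 CPM for WT-labelled mice 1 to 6. The groups did not overlap, as for 3.88% of genes there. The gap was narrow, between KO-labelled mouse 2 at 10.6 CPM from 4 UMIs and WT-labelled mouse 3 at 9.34 CPM from 15 UMIs. By edgeR, the log2 difference came to 1.53 ± 0.29 (SE, adjusted p = 9.0e-04), in the comparison that called 5.48% of genes. After thinning, 2.38% ± 1.18 of recirculating cells in KO and 0.745% ± 0.167 in WT held a Klrg1 UMI (SD). KO-labelled mouse 3, at 0.518%, lay below every WT-labelled mouse, the lowest of which was at 0.559%. The difference in shares did not pass (exact permutation, adjusted p = 0.293). In cytotoxic cells Klrg1 averaged 30.6 ± 11.4 CPM in KO and 35.4 ± 14.5 CPM in WT and did not pass (-0.17 ± 0.27, SE, adjusted p = 0.857). Klrg1 was lower in cycling (10.7 ± 6.23 CPM in KO and 11.2 ± 5.43 CPM in WT) and unnamed 1 cells (9.15 ± 3.87 and 4.75 ± 4.40 CPM), and averaged under 4 CPM in Th17 and unnamed 3 cells of both genotypes. The difference between the cytotoxic and recirculating effects, cytotoxic minus recirculating, was -1.66 ± 0.48 (SE) and did not pass over all genes by limma (adjusted p = 0.509).

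**Figure D3:**
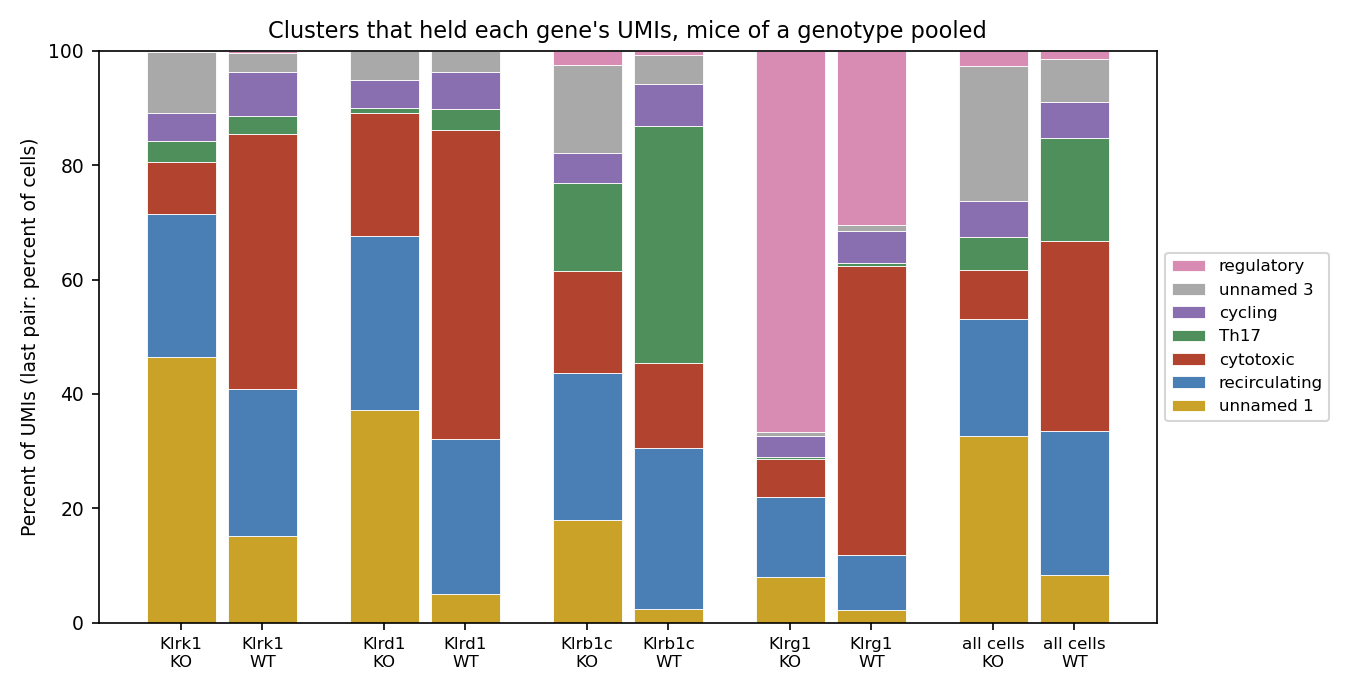
Stacked bars give the percent of each gene's UMIs that fell in each of the 7 clusters, mice of a genotype pooled, KO left of WT, and the last pair gives the percent of cells. In KO 46.5% of Klrk1 UMIs were in unnamed 1 cells and 66.7% of Klrg1 UMIs in regulatory cells; in WT cytotoxic cells held 44.6% of Klrk1, 53.9% of Klrd1 and 50.5% of Klrg1 UMIs.

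The clusters that carried the 4 genes differed with the mix of cells. In KO, unnamed 1 cells made up 32.7% of cells and held 46.5% of Klrk1 and 37.2% of Klrd1 UMIs, while cytotoxic cells made up 8.43% of cells and held 9.20% and 21.6%. In WT, cytotoxic cells made up 33.2% of cells and held 44.6% of Klrk1, 53.9% of Klrd1 and 50.5% of Klrg1 UMIs, against 8.41%, 15.3%, 5.04% and 2.15% for unnamed 1 cells. Klrb1c in WT was spread over Th17 (41.3%), recirculating (28.1%) and cytotoxic cells (14.9%).

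The cells with a Klrk1 UMI had the RNA of T cells. After thinning, 97.98% of 545 such cells in KO and 98.5% of 195 in WT held a UMI of Cd3e, Cd3d or Cd3g, the CD3 chains, against 98.2% and 97.7% of cells without Klrk1. Trdc, the constant gene of the delta chain, was found in none of them, which allows up to 0.550% in KO and 1.54% in WT. Constant genes of the gamma chain (Tcrg-C1, Tcrg-C2 or Tcrg-C4) were found in 6.97% of KO and 11.8% of WT cells with Klrk1, against 6.87% and 9.39% of those without. Tyrobp and Fcer1g, adaptors typical of NK cells, were found in 0.367% each of the KO cells with Klrk1 (0.265% and 0.161% of those without), and in WT Tyrobp in 0.513% (0.187% of those without) and Fcer1g in none. Hcst, the partner of NKG2D, was found in 63.9% and 70.3% of cells with Klrk1, and in 59.3% and 59.0% of cells without it. Cd4 was found in 59.3% of KO and 35.4% of WT cells with Klrk1 (57.7% and 41.2% of those without), and Cd8a in 0.367% and 6.15% (0.415% and 3.85% of those without). A clonotype was recorded for 81.7% of KO and 83.6% of WT cells with Klrk1, and for 85.1% and 89.5% of those without.

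Klrk1 was detected together with Klrd1 and with Klrc1, the NKG2A gene, in more cells than independence would give. In KO, 78 thinned cells held both Klrk1 and Klrd1, where 23.4 would be had if the genes were independent within each mouse and cluster, and in WT the counts were 44 and 11.2. For Klrk1 with Klrc1 they were 198 against 67.6 in KO and 71 against 23.3 in WT. Klrd1 and Klrc1, whose products pair, shared 102 cells against 43.7 in KO and 82 against 36.9 in WT. In all 12 mice a larger share of cells with Klrk1 than without it held Klrd1, 7.08% to 21.2% against 1.31% to 4.54% in KO-labelled mice and 13.3% to 29.6% against 1.85% to 5.24% in WT-labelled mice. Klrg1 and Klrk1 shared 14 cells against 8.61 in KO and 7 against 4.53 in WT. Clones were not kept apart in these counts or in the split by Klrk1 that follows. Before thinning, 40 of 67 cells of 1 clone in KO-labelled mouse 5 held a Klrk1 UMI.

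Cells with a Klrk1 UMI were set against cells of the same cluster and mouse without one, in unnamed 1 cells of 5 KO-labelled mice and in cytotoxic cells of 3 KO-labelled and 4 WT-labelled mice with 10 or more cells on each side. On log2(CPM + 1) with the mouse as block, limma called 0 of 5207 genes in unnamed 1 cells (0.0%, 265 at an unadjusted p under 0.05) and 1 of 5414 in cytotoxic cells (0.0185%, 806 unadjusted), Ylpm1, at 0 CPM in all cells with Klrk1. In those small sums 1 UMI is worth many CPM and the median gene moved by -0.14 and -1.15, so the same sums were also tested with edgeR, a choice made after seeing the data. It called 56 genes (1.08%), 28 higher and 28 lower, in unnamed 1 cells and 19 (0.351%), 13 higher and 6 lower, in cytotoxic cells, with median changes of 0.01 and 0.03. Thinned to 500 UMIs, edgeR called 4 higher and 1 lower in unnamed 1 cells (4 mice). In cytotoxic cells it then called 1 higher and 1 lower (3 mice). At 1500 UMIs the edgeR p-values took little account of each gene's own spread between mice. Ifitm1 in cytotoxic cells had an edgeR adjusted p of 1.5e-10, though only 4 of 7 mice were higher and its limma adjusted p was 0.965.

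Klrc1 and Klrd1 were among the largest rises in both. In unnamed 1 cells Klrc1 averaged 571 CPM in cells with Klrk1 and 129 CPM in cells without it (edgeR log2 fold change 2.26 ± 0.16, SE), higher in 5 of 5 mice, and Klrd1 123 and 26.9 CPM (2.28 ± 0.31, adjusted p = 2.5e-10), higher in 5 of 5. In cytotoxic cells Klrc1 averaged 462 and 93.3 CPM (2.16 ± 0.26, adjusted p = 7.8e-14) and Klrd1 283 and 73.0 CPM (2.06 ± 0.31, adjusted p = 1.3e-08), each higher in 7 of 7 mice. By limma the Klrd1 changes were 2.12 ± 0.35 (adjusted p = 0.798) in unnamed 1 and 1.89 ± 0.42 (adjusted p = 0.242) in cytotoxic cells, and did not pass. Hcst did not pass by edgeR in unnamed 1 (-0.05 ± 0.11) or cytotoxic cells (0.11 ± 0.14).

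Among the other genes that edgeR called, the overlap between clusters was not tested. In unnamed 1 cells Ifitm1, an interferon-inducible membrane protein, was higher in cells with Klrk1 (636 against 180 CPM), as were Itgb1, the integrin beta 1 chain, Csf1 and Rgs2. Areg, the growth factor amphiregulin, was lower (11.4 against 130 CPM, -3.46 ± 0.48, SE), as were Tspan3, Ifi27l2a, the chemokine Cxcl10, H2-M3 and the transcription factor Maf. In cytotoxic cells the lamin gene Lmna, Ifitm1, Ifitm2 and Ifitm3 were higher, Ifitm1 in 4 of 7 mice, and Gzmk, Eomes, Hspa1a, Hspa1b, Ccl1 and Penk were lower, Penk and Ccl1 at 0 CPM in cells with Klrk1.

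**Figure D4:**
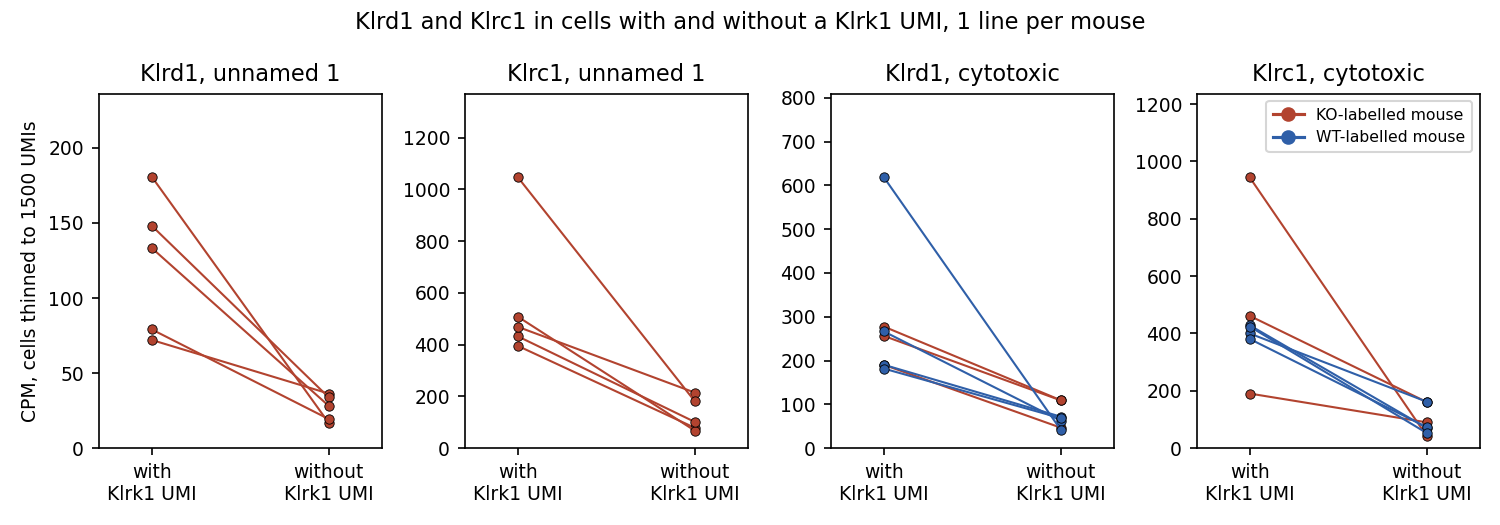
Lines join cells with a Klrk1 UMI (left of each panel) to cells without one (right) of the same mouse, red for KO-labelled and blue for WT-labelled mice, in CPM after thinning to 1500 UMIs, on linear axes from 0. Klrd1 and Klrc1 are higher in cells with Klrk1 in 5 of 5 mice for unnamed 1 cells and in 7 of 7 mice for cytotoxic cells.

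Cells of expanded clones and single cells held the receptors at shares that did not pass a test. Of thinned cells with a clonotype, 11717 belonged to clones of 2 or more cells in a mouse and 3923 to clones seen once. Klrk1 was found in 3.95% ± 2.37 of the expanded and 3.76% ± 2.26 of the single cells (SD over 12 mice; higher in 7 of 12; exact sign-flip permutation p = 0.586, adjusted p = 0.895), Klrd1 in 3.89% ± 1.38 and 3.57% ± 1.46 (adjusted p = 0.871), Klrb1c in 0.454% ± 0.306 and 0.335% ± 0.472 (0.809), and Klrg1 in 2.52% ± 1.16 and 2.35% ± 1.24 (0.930). The test called 0.0% of 9931 genes, and 1225 had an unadjusted p under 0.05. Klrk1 UMIs were spread over 449 of 3569 clones in KO and 209 of 2818 in WT. The clone with most of a mouse's Klrk1 UMIs held 4.74% to 29.5% of them in KO and 8.64% to 31.7% in WT. With 1 cell per clone and mouse, the Klrk1 difference over all cells was 1.24 (adjusted p = 8.0e-05).

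Among related genes, the 4 receptors stood beside lists that were likewise chosen with results of these data known. Of 7 other C-type lectin receptors of NK cells in the table, 4 were tested over all cells, with 1 higher and 1 lower (7.04% and 7.21% of all genes): Klrb1f was lower (6.88 CPM in KO and 14.8 CPM in WT, -1.13 ± 0.18, SE), Cd69, an activation receptor that also retains T cells in tissue, was higher (895 and 717 CPM, 0.28 ± 0.06), and Klrc1 (0.19 ± 0.22) and Klrb1b (-0.99 ± 0.48) did not pass. Their median log2 change was -0.40, against 0.00 for all genes tested. In Th17 cells Klrc1 was higher in KO (169 ± 74.9 CPM in KO and 108 ± 31.2 CPM in WT, 0.72 ± 0.21, SE, adjusted p = 0.0419), in a comparison that called 5.09% of 5558 genes. Cd69 was also higher there (0.54 ± 0.08, edgeR adjusted p = 2.8e-04). Klrb1f was lower in KO in cytotoxic (-1.22 ± 0.29, edgeR adjusted p = 0.0143) and recirculating cells (-0.84 ± 0.24, 0.0322), where 2.89% and 5.48% of genes were called. In the other clusters where they were tested, these 3 genes did not pass.

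Of 14 adaptor and signalling genes tested, 4 were higher and 2 lower in KO (7.04% and 7.21% of all genes), with a median of 0.03. Pik3r1, a subunit of the kinase that NKG2D signalling engages, was higher (151 and 84.5 CPM, 0.79 ± 0.17, SE), as were the phosphatase genes Ptpn6 (0.41) and Inpp5d (0.25), which act downstream of inhibitory receptors, and Cd247 (0.15), the CD3 zeta chain. Sh2d1a, the adaptor SAP, was lower (-0.58), as was Plcg2 (-0.81). Hcst was at 632 CPM in KO and 611 CPM in WT (0.01 ± 0.04).

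Ligand genes of C-type lectin receptors of NK cells were measured in the T cells themselves, not in the tissue. The list was not limited to ligands of Klrk1, Klrd1, Klrb1c and Klrg1 products, and Clec2i is not assigned to any of these here. Of 6 tested by edgeR, 0 were higher and 1 lower (7.04% and 7.21% of all genes): Clec2i fell to 47.9 CPM in KO, against 73.1 CPM in WT (-0.65 ± 0.07, SE). H2-T23, the ligand gene of CD94 with NKG2A, stood at 611 and 522 CPM and did not pass (0.19 ± 0.06, adjusted p = 0.0597). Cdh1, a ligand gene of KLRG1, and H60b, one of NKG2D, did not pass either (adjusted p = 0.0615 and 0.108).

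Of 12 other receptors of NK cells, 2 were higher and 5 lower in KO (7.04% and 7.21% of all genes). Il12rb2, a chain of the interleukin-12 receptor, was at 381 CPM in KO and 173 CPM in WT (1.10 ± 0.13, SE), and Cd96 also rose (0.33). Cd7 (-2.24), Crtam (-2.95), Cd160 (-1.73) and Tigit (-0.75) were among those that fell. Of 14 transcription factors, 3 rose and 3 fell (7.04% and 7.21% of all genes): Eomes (-3.21), a driver of NK cell maturation, fell most, with Zeb2 (-0.95) and Tox (-1.01), while Gata3 (0.47), Bhlhe40 (0.18) and Id2 (0.20) rose. Of 14 granule and effector genes, 0 rose and 6 fell by edgeR (7.04% and 7.21% of all genes), among them Gzmk (-2.23), Ccl5 (-1.67) and Gzma (-1.56). Cytotoxic cells, in which such genes are high, were 8.43% of cells in KO and 33.2% in WT, and the part of this in these counts was not tested.

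**Figure D5:**
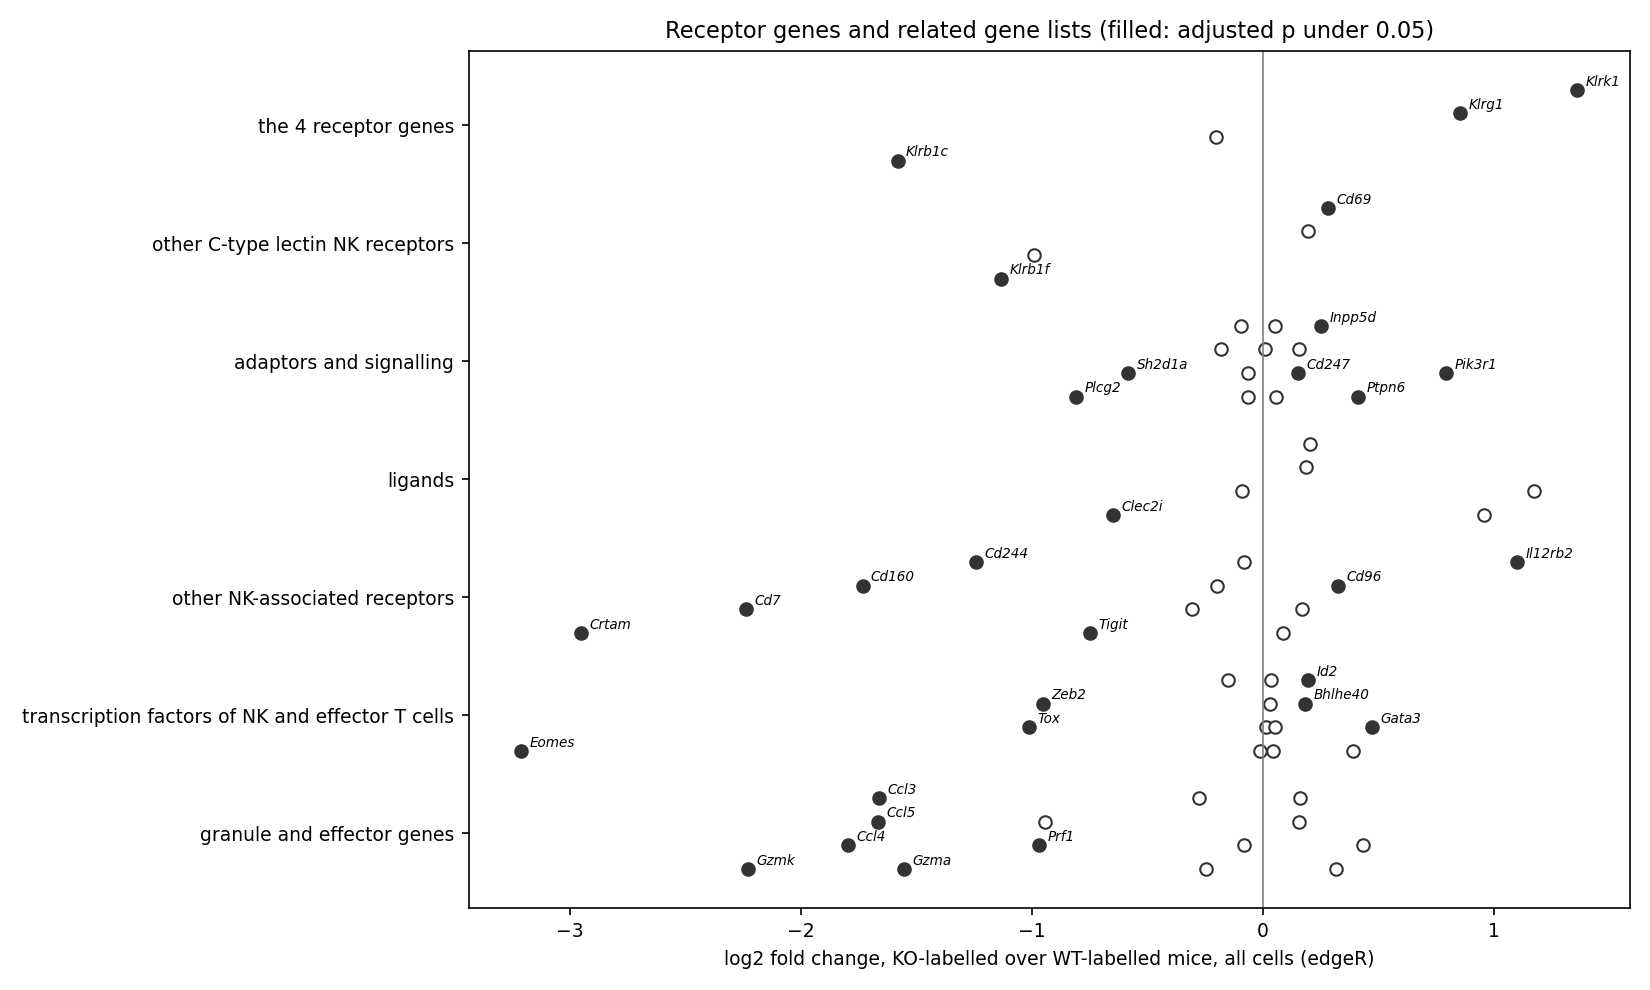
Points give the log2 fold change over all cells, KO-labelled over WT-labelled mice, of the 4 receptor genes (top) and of the tested genes of 6 related lists, filled and named where the adjusted p was under 0.05. Klrk1 (1.36) and Klrg1 (0.85) lie right of 0 and Klrb1c (-1.58) left of it, and all 6 filled granule and effector genes lie left of 0.

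Over 80 sums of 1 mouse and 1 cluster each, which share mice and the pooled library, the genes most like Klrk1 by Pearson correlation of log2(CPM + 1) were Serpinb9 (r = 0.73), an inhibitor of granzyme B, St3gal6 (0.73), Lgals3 (0.71), the galectin-3 gene, Cd69 (0.68) and Ugcg (0.68), of 5271 compared. For Klrd1 they were the chemokine Ccl5 (0.81), the cathepsin Ctsw (0.76), Epsti1 (0.75), Serpinb6b (0.74) and Themis (0.74). For Klrg1 they were Cmtm7 (0.85), Slc9a3r1 (0.83), S100a10 (0.79), Gbp7 (0.78) and Pglyrp1 (0.78). For Klrb1c no gene reached 0.5: Plcg1 was at 0.45, followed by Rpl24, Eef1b2, Rplp0 and Naca, of the translation machinery. These values describe the sums and carry no test.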

How the data were processed

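Deposited files held UMI counts per gene and cell with the authors' annotation of each cell (mouse, genotype, cluster, clonotype, doublet score and the percent of its UMIs from mitochondrial genes). The counts were made by the authors with Cell Ranger 3.1.0 and Seurat 3.1.5 on GRCm38, per the submitters' processing notes, from 5′ libraries, per the labels' protocols. The percent and score columns were deposited by the authors with no tool named in the sources used here, and no cell was removed on them; no doublet caller was run, and the highest deposited score was 0.354. Cells came from 1 gene expression library, so libraries shared no cells. Hashtag tables gave the same genotype as the annotation for all 18860 cells.

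UMIs were summed per mouse, over all cells or within a cluster for mice with 20 or more cells there. KO-labelled and WT-labelled mice were compared with edgeR 4.0.16 (quasi-likelihood test, TMM scaling, filterByExpr), with Benjamini-Hochberg adjustment over all genes tested and a threshold of 0.05; fold changes are KO over WT. DESeq2 1.42.0 was an alternative. Effects between clusters and cells with and without a Klrk1 UMI were compared with limma 3.58.1 under R 4.3.3. Shares of cells were compared by exact permutation over the 924 assignments of 12 mice, after thinning each cell to 1500 UMIs, which left out 491 KO-labelled and 407 WT-labelled cells. Python 3.11.15, numpy 2.4.6 and scipy 1.17.1 were used. Scripts were tested on simulated data. Mouse numbers are names and pair no mice. The members and lists were chosen with earlier results of these data known. Named were the 4 members, up to 6 genes per list with the smallest p, the 5 genes most like each member with a mean of 20 CPM or more, and the 6 largest rises and falls called in the Klrk1 split; genes outside this rule are said to be so in the text. Limits given where no UMI was seen cover counting error only. SDs were taken over mice, and SEs came from the edgeR or limma fits.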

Additional observations from a re-analysis of the deposited data

Results flagged for a closer look

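In 7 of the 70 groups of mice tested, 1 mouse lay far from the others. The groups also covered Klrc1 and Bcl6, and those over all cells held the cells of the clusters. The rate of about 1 in 20 by chance assumes independent groups with normal spread, so no excess over it can be read here. Klrk1 in cytotoxic cells was 69.6 CPM in WT-labelled mouse 2, against 26.1 CPM in the nearest mouse of that genotype. Klrk1 in unnamed 3 cells was 31.4 CPM in WT-labelled mouse 6, from 12 UMIs, with the nearest at 10.7 CPM. Klrd1 in recirculating cells was 56.5 CPM in KO-labelled mouse 4, with the nearest at 34.1 CPM. Klrd1 in cytotoxic cells was low in WT-labelled mouse 1, at 23.9 CPM, with the nearest at 62.9 CPM. Klrd1 in unnamed 3 cells was 22.99 CPM in KO-labelled mouse 4, from 6 UMIs, with the nearest at 8.87 CPM. Klrb1c in cytotoxic cells was 4.94 CPM in WT-labelled mouse 3, from 7 UMIs, with the nearest at 2.20 CPM. Klrg1 in recirculating cells was 36.6 CPM in KO-labelled mouse 4, with the nearest at 20.3 CPM.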

How the results depend on the processing

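Over 39 results and 434 alternatives, 384 kept the direction and the side of the threshold or moved little, 7 reversed, 16 lost a call, 9 gained one and 18 moved; where they changed, the cause was not tested. With every mouse weighted to the pooled mix of clusters, Klrd1 over all cells was 0.078 on the log2 scale and Klrb1c -1.12. The expanded minus single difference of Klrk1 was -0.031 percentage points with clusters weighted by their pooled shares. Without KO-labelled mice 1 and 2, an alternative chosen after seeing the data, Klrd1 was 0.085, Klrb1c -1.19, Klrg1 0.46, and 770 genes were called over all cells. Klrg1 was 0.69 with equal numbers of cells per mouse and -0.21 without regulatory cells, and Klrg1 in clones of 5 or more cells was -0.072 percentage points. With 1 cell per clone and mouse (chosen after seeing the data) 926 genes were called, and Klrb1c could not be tested. With no filter, Klrk1 in unnamed 1 cells was 0.94, 307 genes were called in cytotoxic and 44 in regulatory cells; with every mouse, 2 genes were called in regulatory cells and Klrg1 was 0.99.

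In the Klrk1 split, limma on cells thinned to 500 UMIs called 662 genes in cytotoxic cells (661 lower, median gene -2.21) and 116 in unnamed 1 cells (116 lower, median gene -1.60), with Klrc1 in unnamed 1 at -0.14. At 500 UMIs edgeR called 1 gene higher and 1 lower in cytotoxic cells, and 4 higher and 1 lower in unnamed 1 cells, so its calls at 1500 UMIs did not hold in number. At 1500 UMIs edgeR called 19 and 56, with Klrd1 at 2.06 and Klrc1 at 2.16 in cytotoxic cells, and 2.28 and 2.26 in unnamed 1 cells. Leaving out 1 mouse gave, on the log2 scale, 0.69 to 1.01 for Klrg1 over all cells, 0.70 to 1.23 for Klrk1 in unnamed 1 cells (called without KO-labelled mouse 4 or WT-labelled mouse 6), -0.088 to 0.31 for Klrd1 in recirculating cells (below 0 without KO-labelled mouse 4), 0.77 to 1.42 for Klrk1 in cytotoxic cells and 0.83 to 1.07 for Klrg1 in regulatory cells, where 0 to 12 genes were called by edgeR. The Klrk1 share difference ran from 3.39 to 4.36 percentage points (adjusted p 0.0406 to 0.114, passing without KO-labelled mouse 6), and the limma split in cytotoxic cells called 1 to 6 genes. Mouse numbers are only names: No paired analysis was possible because the numbers come from hashtags and link no KO-labelled to a WT-labelled mouse.

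Klrb1c rested on the fewest UMIs, 39 in KO and 121 in WT. In regulatory cells, 254 in KO and 126 in WT, every member but Klrg1 also rested on few UMIs. The part of depth in this was not tested.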
